A study of Mus musculus with 2 samples.

Results

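EGR1 peaks were examined at 9 genes that give cortical interneurons their identity: Gad1 and Gad2, Slc32a1, Npy, Sst and Vip, Pvalb, Reln and Lhx6. A peak was counted for a gene when its centre lay in the gene body or within 10 kb of a transcription start site (TSS) of the gene in GENCODE release M21 (mouse build mm10). The rule names the genes and uses no measured value, although the genes were proposed with results of these data in view. Of the 9 genes, 5 had a peak (Gad1, Gad2, Slc32a1, Npy and Reln) and 4 had none (Pvalb, Sst, Vip and Lhx6). Slc32a1 had 2 peaks and the other 4 genes had 1 each, so 6 of the 12014 EGR1 peaks fell at these genes. By the same rule 39.6% of the 21938 protein-coding genes had a peak, and the 5 of 9 here (55.6%, 95% Wilson interval 26.7 to 81.1%) cannot be told apart from that share.

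EGR1 is a zinc finger transcription factor whose gene is switched on by neuronal activity. ChIP-seq, which sequences the DNA pulled down by an antibody against a protein, was performed for EGR1 on frontal cortices of male F1 hybrids of 129SvEv females and C57BL/6N males at 6 weeks of age. The 2 ChIP replicates, each from the pooled cortices of 4 to 5 mice, were merged by the authors into 1 list, in which each peak has an irreproducible discovery rate (IDR), low where both replicates rank the peak high and alike. The list was limited to an IDR of 2%, has no read counts or values of single replicates, and the input DNA sample had no processed file here, so an IDR has no error of its own and the depth behind a peak is unknown. Frontal cortex is a mixture of excitatory neurons, interneurons and glia, no cell type was sorted and no RNA was in the file. A peak at an interneuron gene therefore cannot be assigned to interneurons, and neither can binding in a minority of the cells be told apart from weak binding in all of them.

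Interneurons are the inhibitory cells of the cortex and use GABA as their transmitter. GABA is made from glutamate by the enzymes that Gad1 and Gad2 encode (GAD67 and GAD65) and is loaded into synaptic vesicles by the transporter that Slc32a1 encodes (VGAT), so almost every interneuron uses these genes. The remaining genes divide the interneurons into classes, such as fast-spiking cells with the calcium buffer parvalbumin (Pvalb), cells with the neuropeptides somatostatin (Sst), vasoactive intestinal peptide (Vip) or neuropeptide Y (Npy), and cells that secrete the matrix protein reelin (Reln), while the LIM homeodomain factor LHX6 directs the fate of cells born in the medial ganglionic eminence.

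The sequences that carry the comparison are given first. They were read from the mm10 genome (GRCm38.p6), 5′ to 3′, with positions counted from 1. Capitals mark the EGR motif, here GCGTGGGCG or GCGGGGGCG on either strand, or a 9-base site that differs from it at 1 base. Where a peak lies in a 5′ untranslated region, the motif with 10 bases on each side is shown in the direction in which it reads.

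Gad1 peak, minus strand, chr2:70562112-70562140, exact motif: cttgggggagGCGGGGGCGgagtggggag

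Gad2 peak, minus strand, chr2:22622233-22622261, 1 mismatch: cgagtcagatGCGGGGGAGggaggcgtgc

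Slc32a1 peak 1, minus strand, chr2:158610879-158610907, exact motif: gtcaggcggtGCGTGGGCGgagggcggcg

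Slc32a1 peak 2, whole peak in intron 1, plus strand, chr2:158612921-158613170, exact motif: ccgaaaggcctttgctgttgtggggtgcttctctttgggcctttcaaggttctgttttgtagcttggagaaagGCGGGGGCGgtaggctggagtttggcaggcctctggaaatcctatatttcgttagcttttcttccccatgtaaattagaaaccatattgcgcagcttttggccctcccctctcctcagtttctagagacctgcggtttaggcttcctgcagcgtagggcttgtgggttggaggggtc

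Npy peak up to the TSS, plus strand, chr6:49822492-49822709, 1 mismatch: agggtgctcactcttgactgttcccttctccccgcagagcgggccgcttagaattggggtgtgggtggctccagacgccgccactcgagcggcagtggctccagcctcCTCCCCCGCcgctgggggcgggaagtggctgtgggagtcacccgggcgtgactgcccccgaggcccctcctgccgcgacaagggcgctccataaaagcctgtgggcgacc

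Reln peak, whole, minus strand (the strand of the gene), chr5:21906338-21906556, no site within 1 mismatch: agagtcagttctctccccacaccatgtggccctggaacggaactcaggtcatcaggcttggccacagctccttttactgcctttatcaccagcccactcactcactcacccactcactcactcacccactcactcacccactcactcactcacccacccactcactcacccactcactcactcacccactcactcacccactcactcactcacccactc

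The Reln promoter, which had no peak, is shown beside these because it is dense in EGR motifs. It is the stretch of 250 bases before the RefSeq start of Reln (GRCm38.p6), in which adjoining or overlapping sites make 1 run of capitals.

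Reln promoter, minus strand, chr5:22344706-22344955: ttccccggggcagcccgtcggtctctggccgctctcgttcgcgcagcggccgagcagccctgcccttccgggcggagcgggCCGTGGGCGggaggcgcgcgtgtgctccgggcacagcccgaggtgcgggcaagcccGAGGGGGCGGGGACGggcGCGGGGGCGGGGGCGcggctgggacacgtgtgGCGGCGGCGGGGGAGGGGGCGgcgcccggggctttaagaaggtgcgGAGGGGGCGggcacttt

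Both genes for GABA synthesis carried 1 peak at the TSS. The Gad1 peak (chr2:70562033-70562282, 250 bp) had an IDR of 0.0033 and rank 8751 of the 12014 peaks, counted from the lowest IDR. Its centre lay in the 5′ untranslated region of exon 1 of the 17-exon main transcript, 115 bp downstream of the start, and 6 bp from the start of a retained-intron transcript of the same gene. A further start, that of the antisense gene Gad1os, lay 1200 bp from the centre, so the peak belongs to a region that 2 annotated genes share.

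The Gad2 peak (chr2:22622168-22622417, 250 bp) had an IDR of 0.0159 and rank 11537, close to the limit of the list. It lay in the 5′ untranslated region of exon 1, with its centre 87 bp downstream of the only TSS of the basic annotation. An IDR limit of 0.01 would have kept the peak of Gad1 and lost that of Gad2.

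Slc32a1, the gene for the vesicular transporter, was the only one of the 9 with more than 1 peak, and 13.7% of all protein-coding genes had 2 or more. Peak 1 (chr2:158610743-158611006, 264 bp) had an IDR of 0.000122 and rank 5230, with its centre 107 bp downstream of the start, in the 5′ untranslated region of exon 1. Peak 2 (chr2:158612921-158613170, 250 bp) lay in the single intron, 2278 bp from the start, and had an IDR of 0.0197 and rank 11985, near the end of the list. The IDRs of the pair differ by more than 2 orders of magnitude although the gene is 4.98 kb long. The start of the transcript Gm14204 lay 151 bp and that of the antisense gene Gm14205 946 bp from the centre of peak 1.

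Among the neuropeptide genes Npy had a peak and Sst and Vip did not. The Npy peak (chr6:49822492-49822755, 264 bp) had an IDR of 0.000715 and rank 6800. It was the only one of the 6 peaks centred upstream of a gene, 87 bp before the single start of Npy, and it ran across that start. The nearest start of another protein-coding gene lay 287618 bp away, so the assignment to Npy does not depend on a neighbour.

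Reln, the gene for the secreted protein reelin, had the peak with the lowest IDR of the 6 and the one farthest from a main start. The peak (chr5:21906338-21906556, 219 bp) had an IDR of 7.03e-08 and rank 642. It lay in intron 57 of the 65-exon main transcript, 438 kb downstream of the main start, and 7401 bp from the start of a short noncoding transcript of the gene. Reln spans 460 kb and is longer than 98.8% of protein-coding genes, and long genes often had a peak by this rule, 61.6% of the 2492 genes of at least 100 kb. The peak counts by its place in the gene body at any limit around the TSSs, and without the gene body it is lost at limits under 7401 bp.

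**Figure D1:**
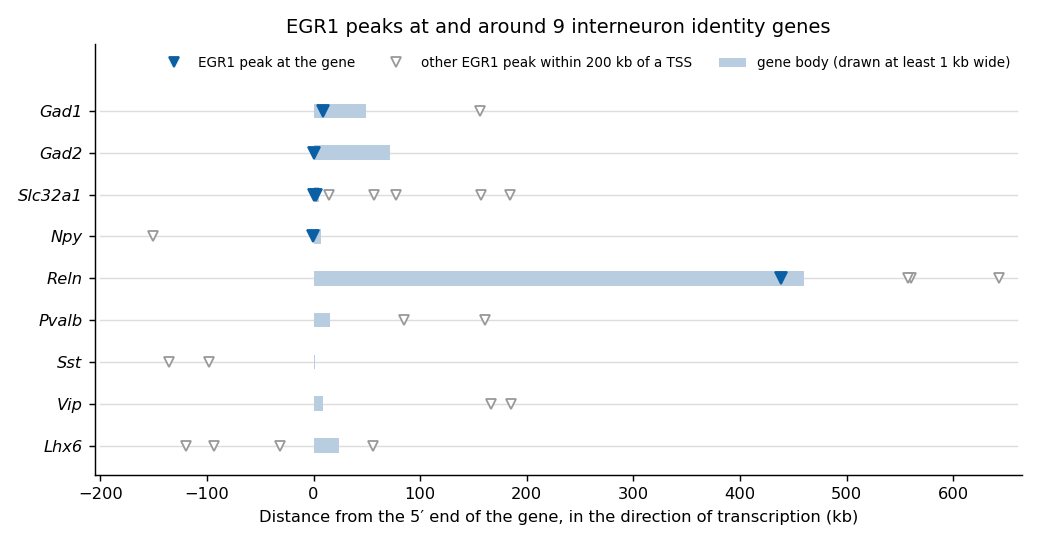
Peak centres (triangles) along each of the 9 genes (bars), by distance in kb from the 5′ end of the gene in the direction of transcription. The filled peaks of Gad2 and Npy and peak 1 of Slc32a1 sit at the 5′ end, peak 2 of Slc32a1 inside the gene, that of Gad1 at the start of its main transcript inside the annotated gene, that of Reln far inside the gene, and Pvalb, Sst, Vip and Lhx6 have open triangles only.

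Around the limit of 10 kb the assignment was clear. The member peaks farthest from a TSS were those of Reln (7401 bp) and Slc32a1 peak 2 (2278 bp), both in a gene body. The nearest peak left out was at 14110 bp from the TSS of Slc32a1, with its centre 11 bp from the start of Actr5. A stricter limit of 1 kb around the TSSs left Gad1, Gad2, Slc32a1 and Npy, or 4 of the 9 genes (44.4%), where 28.1% of protein-coding genes had such a peak.

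**Figure D2:**
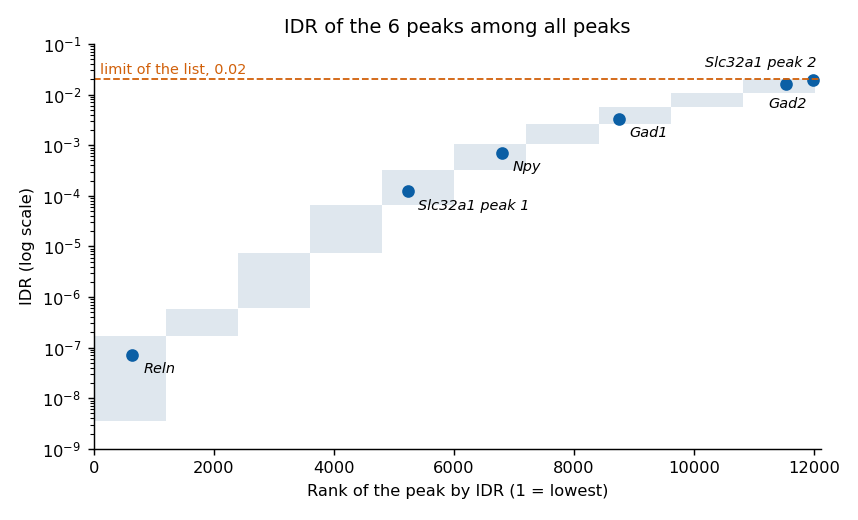
IDR (log scale) of the 6 peaks against their rank among the 12014 peaks, with grey boxes for the range of IDR in each of 10 equal parts of the list and a dashed line at the limit of 0.02. The Reln peak stands in the first box, and those of Gad2 and of the Slc32a1 intron stand in the last.

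The IDRs of the 6 peaks ran from 7.03e-08 to 0.0197 with a median of 0.00201, and the median over the 11938 peaks on assembled chromosomes, to which the shares of peaks below also refer, was 0.000325. Only 1 of the 6 was in the 10% of the list with the lowest IDR, 2 were in the 10% with the highest, and 3 had an IDR of 0.001 or less. That limit falls near the upper end of part 6 of the 10 equal parts of the list (0.000322 to 0.00104). Most peaks of the list thus meet it too, and the count of 3 says little about these peaks. For peaks within 1 kb of a TSS the median was 7.94e-05, and the 4 peaks at the starts of these genes (0.000122, 0.000715, 0.0033 and 0.0159) all lay above it. The read depth and the fraction of cells that could set such a rank were not in the file, and their part was not tested.

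For the genes without a peak, the nearest peak sat at other genes. Lhx6 was nearest, with a peak centre 31413 bp from one of its TSSs and 48 bp from the start of Rbm18, an RNA-binding protein gene. For Pvalb the distance was 82718 bp, to a peak 1491 bp from a start of Cacng2, which encodes stargazin. Sst lay 97861 bp from a peak 33 bp from a start of Bcl6. Vip lay 165246 bp from a peak 2 bp from a start of Fbxo5, and 78.2% of protein-coding genes had a nearer peak. The median distance for protein-coding genes was 29832 bp, close to that of Lhx6 and below those of Vip, Sst and Pvalb. That median includes the genes with a peak by the rule, whereas these genes were picked for having none within 10 kb. A larger distance is thus partly fixed by the rule and is not a trait of these genes. Of all protein-coding genes, 41.4% had no peak within 50 kb. The Fbxo5 peak, which lies beyond the 10 kb limit for Vip, had an IDR of 3.12e-08 and rank 221.

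The CpG content of the start was compared between the genes with and without a peak there. The observed/expected CpG ratio, which is low where methylated CpGs have been lost in evolution and high in CpG islands, was taken in 1 kb around each TSS, and the highest ratio of a gene was used. It was 0.75 for Gad1, 0.66 for Gad2, 0.76 for Slc32a1 and 0.63 for Npy, all with a peak within 1 kb. It was 0.52 for Pvalb, 0.58 for Sst and 0.29 for Vip, all with no peak. Reln (1.02) and Lhx6 (0.79) had CpG-rich starts without a peak there, and the ratio at the Reln start was higher than in 97.9% of protein-coding genes.

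At a limit of 0.6, chosen after these ratios were seen, 4 of the 6 genes with a CpG-rich start had a peak there (within 1 kb), and so did 46.7% of the 11524 protein-coding genes with such a start. None of the 3 genes with a CpG-poor start had one, where 7.52% of 10414 genes did. Counts of so few genes cannot be told apart from these genome-wide shares, so they are not a result about interneuron genes. Sst and Npy lie close to the limit on either side of it. The division also depended on the window. In the RefSeq promoters of 300 bases, Gad2 (0.54) and Slc32a1 (0.57), which had a peak, fell below 0.6, whereas Sst (0.71) and the downstream promoter of Pvalb (0.73), which had none, lay above it.

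**Figure D3:**
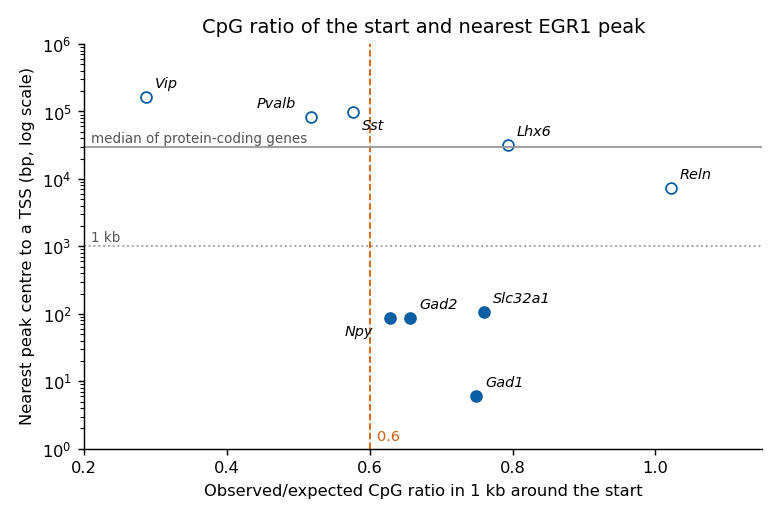
CpG ratio in 1 kb around the start (highest of the TSSs of a gene) against the distance in bp (log scale) from the nearest peak centre to a TSS, for the 9 genes. Filled points have a peak within 1 kb and all lie to the right of 0.6 (dashed line). Open points have none, and the solid line is the median distance of protein-coding genes, 29832 bp.

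Within the peaks themselves, the 4 at the TSSs were rich in GC and CpG. Their GC content was 72.4% at Gad1, 62.0% at Gad2, 73.5% at Slc32a1 peak 1 and 68.6% at Npy, with 23, 16, 32 and 20 CpGs. Their CpG ratios (0.75, 0.77, 0.97 and 0.65) were at least 2 times those of the windows 5 kb to each side (0.28, 0.15, 0.27 and 0.13). Slc32a1 peak 2 was intermediate, with 7 CpGs, a GC content of 52.4% and a ratio of 0.42 against 0.26 in the flanks. The Reln peak alone went the other way, with 1 CpG and a ratio of 0.11 against 0.38, at a GC content of 56.6%. The median ratio was 0.70 over the 6 peaks, 0.60 over all these peaks and 0.78 over the peaks within 1 kb of a TSS.

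**Figure D4:**
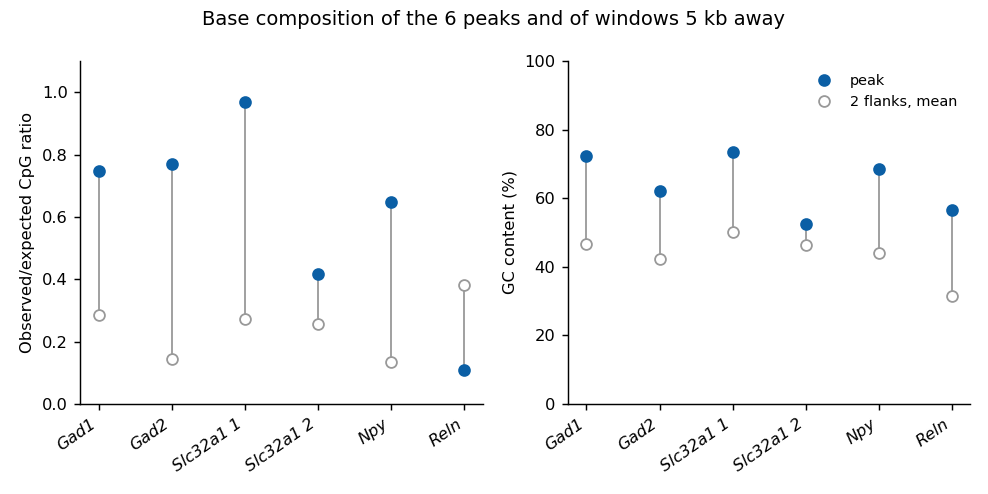
CpG ratio (left) and GC content in percent (right) of the 6 peaks (filled) and of windows of the same width 5 kb to either side (open, mean of both). The CpG ratio of the peak is above its flanks at every gene but Reln, whereas the GC content is above the flanks in all 6.

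Of the 6 peaks, 3 held an exact EGR motif (50%, 95% Wilson interval 18.8 to 81.2%), namely those of Gad1 and both of Slc32a1, as printed above. The interval treats the 6 peaks as independent, although both Slc32a1 peaks lie in 1 gene, so it is too narrow. The motif was present in 16.6% of all 11938 peaks, just below this interval, and in 22.8% of the peaks within 1 kb of a TSS, inside it. With so few peaks and an interval that is too narrow, a difference from either share is not settled, and none was tested. In Gad1 it was GCGGGGGCG, 31 bp from the peak centre, in Slc32a1 peak 1 GCGTGGGCG, 19 bp from the centre, and in Slc32a1 peak 2 GCGGGGGCG, 47 bp from the centre. Slc32a1 peak 1 held another 3 sites with 1 mismatch, of which 2 overlap. Allowing 1 mismatch gave a site in 5 of 6 peaks, and Gad2 and Npy shared the same one, GCGGGGGAG, 45 and 19 bp from the centre. With 1 mismatch allowed 69.8% of all peaks had a site, so this looser match says little about a single peak.

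Other motifs were also searched on both strands. The GC box GGGCGG, which the EGR motif can overlap, was in 4 of the 6 peaks and in 55.8% of all peaks. The CRE TGACGTCA and the AP-1 site TGANTCA were in 0 of the 6, and in 1.3% and 6.48% of all peaks. No match says only that these letters are not in these windows.

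The Reln peak differed from the other 5 in its sequence. No site within 1 mismatch of the EGR motif was present in it, and 51.1% of the 4955 peaks over 1 kb from a TSS had such a site. The lack of one is thus common among peaks far from a TSS. The exact motif was in 46.6% of the peaks in the 10% with the lowest IDR, and in 36.1% of the 202 peaks among these that lay over 1 kb from a TSS. From the middle onwards it consists of copies of a short unit of C, A and T, visible in the printed sequence, and 64.3% of its bases equalled the base 12 positions before them. Among all peaks, 40 (0.335%) reached 60% by this measure at some distance of up to 12 bases, 36 of them over 1 kb from a TSS, and 1 of the 40 held an exact EGR motif. The 31-base word at the middle of the Reln peak occurred 5 times on the assembled chromosomes, once in the peak, whereas that of each of the other 5 peaks occurred once. The part of repeated sequence in this peak was not tested, and without it 4 of the 9 genes had a peak and 39.5% of protein-coding genes without peaks of this kind.

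The annotated Reln promoter showed the opposite. The RefSeq promoter of 300 bases (250 before the start and 50 after it) had a GC content of 80.7%, 47 CpGs, 2 exact EGR motifs, 9 sites with 1 mismatch and 6 GC boxes, yet no peak overlapped it or lay within 200 kb of the main start. An exact EGR motif was in 3.47% of the 32851 RefSeq promoters and a GC box in 35.7%. Of the promoters with 2 or more exact motifs, 60.2% of 113 overlapped a peak, of those with 1 motif 66% of 1026, and of those with none 11.2% of 31712. Reln is thus among the promoters with several motifs that had no peak. Whether reads could be placed in a sequence of this GC content was not tested.

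The promoters of the other genes without a peak were matched in the same table, which held 12 promoters for the 9 genes. None of the promoters of Pvalb, Vip or Lhx6 held an EGR motif, exact or with 1 mismatch, which 27.2% of all RefSeq promoters do. Pvalb has 2 promoters that differ in composition, the downstream one with 25 CpGs and a CpG ratio of 0.73 and the upstream one with 5 and 0.20. The Sst promoter held a site with 1 mismatch, GCGTGGGTG, and a CRE centred 44 bp upstream of the RefSeq start. The CRE, a match found in 1.79% of promoters, is the element through which cyclic AMP is known to act on this gene. It is shown in capitals because it was the only exact TGACGTCA in the 12 promoters. Looser matches were not searched, and the Vip promoter holds TGACGTCT, which differs from it at 1 base.

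Sst promoter, minus strand, chr16:23890875-23890902: cctccttggcTGACGTCAgagagagagt

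Genes around the 9 were counted by the same rule. Of 6 genes for GABA uptake and breakdown 1 had a peak, Abat, which encodes GABA transaminase (IDR 6.58e-08, centre 70 bp from a TSS). Within the GABA pathway, peaks were thus present at synthesis (2 of 2 genes), vesicular loading (1 of 1) and the first step of breakdown. Of 14 other interneuron markers 4 had a peak: Erbb4, the neuregulin receptor (IDR 1.42e-05), Lamp5 (0.000149, 45 bp from a TSS), the peptide gene Cck (0.000772) and Pthlh (0.0026). Calb1, Calb2, Tac1, Nos1 and Htr3a were among the 10 without.

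Of 17 lineage factors 5 had a peak: the bHLH-PAS factors Npas3 (IDR 1.59e-07, in the gene body far from a TSS) and Npas1 (1.25e-06, 117 bp from a TSS), Sox6 (0.000131), Dlx5 (0.00125) and Satb1. Sox6 and Satb1 act after Lhx6 in cells from the medial ganglionic eminence, and both had a peak where Lhx6 had none. The start was CpG-rich in 16 of the 17 factors, and 3 of these 16 had a peak within 1 kb of a TSS. Of the 11524 protein-coding genes with such a start, 46.7% had one. The count is small and its difference from this share was not tested. In all, 10 of these 37 GABA and interneuron genes had a peak (27.0%, 95% Wilson interval 15.4 to 43.0%), a share that the interval does not separate from the 39.6% of protein-coding genes.

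For comparison, 10 of 20 genes of projection neurons, the excitatory cells of the cortex, had a peak (50%, interval 29.9 to 70.1%). The lowest IDRs in that list were 1.9e-08 at Camk2a, 3.55e-08 at Slc17a7 (the vesicular glutamate transporter VGLUT1), 4.79e-08 at Neurod2 and 1.61e-07 at Pou3f2. Slc17a7 and Slc32a1, the vesicular transporters of the excitatory and inhibitory transmitter, had 4 and 2 peaks. No Slc17a7 peak lay within 1 kb of a TSS (the nearest was at 1598 bp), whereas 1 Slc32a1 peak did. Of 6 astrocyte markers 1 had a peak (Slc1a2), of 7 oligodendrocyte markers 1 (Mbp) and of 6 microglial markers 3 (Aif1, P2ry12 and Cx3cr1). No oligodendrocyte or microglial marker had a peak within 1 kb of a TSS, where 28.1% of protein-coding genes did. The start was CpG-rich in 3 of the 7 oligodendrocyte and 0 of the 6 microglial markers. Of protein-coding genes with a CpG-poor start, 7.52% had such a peak. The counts are small and their difference from these shares was not tested. The intervals of all these lists overlap that of the 9 interneuron genes, and no difference between the lists was tested.

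**Figure D5:**
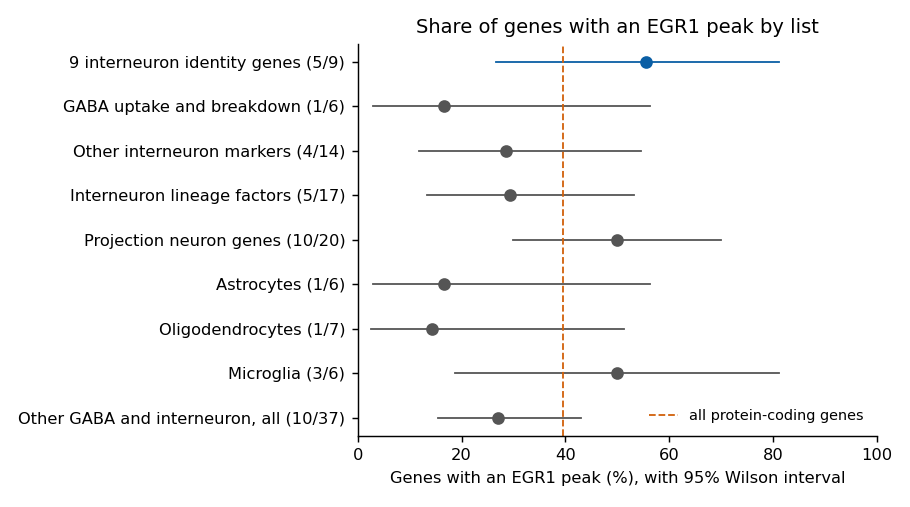
Percent of the genes of each list with an EGR1 peak (points) with 95% Wilson intervals (lines), the number of genes in brackets and the share of all protein-coding genes as a dashed line at 39.6%. The intervals of the 9 genes (5/9) and of every other list cross the dashed line.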

How the data were processed

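EGR1 ChIP-seq of frontal cortex was analysed from 1 deposited peak list (mm10). The authors trimmed the reads, aligned them with Bowtie, called peaks with SPP in each replicate and kept those that passed IDR. The submitters' processing notes name cutadapt, Bowtie2 2.2.9 and bedtools 2.26.0. The only value the authors deposited per peak is the IDR, which is read like a q-value. Starts were read as in BED files. The 76 peaks on scaffolds count in the total of 12014 and in the ranks and equal parts of the list. They took no part in the counts of genes or in the shares and medians over 11938 peaks.

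Genes, sequence and promoters came from GENCODE M21, GRCm38.p6 and RefSeq, and were read with Python 3.11.15, pysam 0.24.0, pandas 2.3.3 and scipy 1.17.1. The scripts were tested on simulated data. All results are counts and medians, with no test, since there is 1 list.

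The genes and lists were chosen with earlier results of these data known. All 9 genes are named, and of the other lists the 4 with the lowest IDR, plus genes that share a window with them. Genes without a peak, Satb1 and the limits for CpG-rich starts and repeats were picked after values were seen. Wilson intervals cover the sampling of genes or peaks only.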

Additional observations from a re-analysis of the deposited data

How the results depend on the processing

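The counts for the 9 genes changed by at most 1 gene and 1 peak under every distance rule tried (5 kb, 2 kb or 20 kb around a TSS with the gene body, 10 kb without it, the gene body alone, any overlap, basic transcripts, or the nearest protein-coding TSS). They depended on the IDR limit. At an IDR of 0.001 or less, 3 of the 9 genes had a peak, with 3 peaks, of which 2 genes had one within 1 kb of a TSS. Keeping only 50% of the peaks, those of lowest IDR, left 2 genes with 2 peaks, and 6 of the 37 other GABA and interneuron genes. Fewer peaks enter these counts by construction. The share of protein-coding genes with a peak moved from 39.6% to 37.0% at an IDR of 0.01, 29.0% at 0.001 and 25.8% in that 50%, to 36.0%, 34.2% and 45.9% at 5 kb, 2 kb and 20 kb, to 37.2% without the gene body and 23.9% in the gene body alone, to 38.4% with basic transcripts and to 31.3% with the nearest TSS. Allowing 1 mismatch raised the peaks with an EGR motif from 3 to 5. Leaving out tandem-repeat peaks, an alternative chosen after seeing the data, removed the Reln peak and moved the median IDR from 0.00201 to 0.0033.

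The list merges both replicates, and none was left out. No paired analysis was possible because there is 1 list and no group to compare it with. With 9 genes and 6 peaks the intervals are wide, and binding below the IDR limit of the list, or in few of the cells, was not measured.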
